A study of Mus musculus with 9 samples.

Results

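The replication-dependent histone genes were followed in mouse ovaries of 3 Taf4b genotypes. They were taken as every probe set whose first gene symbol in the authors' wild-type against knockout table begins with Hist1h, Hist2h, Hist3h or Hist4h, which gave 68 probe sets for 49 of the 22349 gene symbols on the array. Each gene is represented by its probe set of highest mean intensity. The rule goes by symbol alone. The set therefore also holds the testis or germ-cell variant genes Hist1h1t, Hist1h2aa and Hist1h2ba, the olfactory variant gene Hist2h2be and the pseudogene Hist3h2bb. Whether these are replication-dependent was not tested. By the letter in the symbol, 6 genes encode the linker histone H1, 12 encode H2A, 14 encode H2B, 7 encode H3 and 10 encode H4. By RefSeq annotation of GRCm38.p6, 36 of them lie on chromosome 13, 9 on chromosome 3, 3 on chromosome 11 and 1 on chromosome 6. These are positions of the annotated genes, and where the probes themselves lie was not checked.

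RNA was extracted with Trizol from 9 mice aged 3 weeks, of which 3 were labelled wild type, 3 TAF4b heterozygote and 3 TAF4b knockout. From each animal 300 ng of total RNA was used for its own array (GeneChip Mouse Gene 1.0 ST). The ovary as a whole was measured, so that fewer cells of a type and less RNA per cell cannot be told apart. How the Taf4b allele was made, and the background strain, are not given in the sources used here. The number of arrays limits the precision. The p-values of the linear model (limma) rest on a spread between mice within groups that is estimated over all 9 arrays. The genotype left out of a comparison therefore also enters its p-value. TAF4b is a subunit of the general transcription factor TFIID that is enriched in the gonads.

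Replication-dependent histone genes are transcribed in S phase, when new DNA has to be packed into nucleosomes, and most of their messages end in a conserved stem-loop in place of a poly(A) tail. H2A, H2B, H3 and H4 form the nucleosome core, and H1 binds the linker DNA between cores. In the ovary of a young mouse, the granulosa cells of growing follicles divide, whereas the oocytes are arrested in meiosis and keep stores of histones for the embryo. The genes occur in clusters of near-identical copies, and probes of such copies can measure several genes together.

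The promoters of the histone genes show which sequence elements the members share, and 43 of the 49 genes had one in the RefSeq table. Motifs were searched over the 250 bases before the start and on both strands. The exact letters TATAAA, a form of the TATA box, were present in 22 of 43 (51.2%), against 12.4% of all 32851 promoters of the table. Other forms of the TATA box were not counted. The CCAAT box was present in 34 of 43 (79.1%, against 33.8%), and the octamer ATTTGCAT, a POU-factor motif known from H2B promoters, in 11 of 43 (25.6%, against 1.60%). The motifs were distributed by class. CCAAT was found in 12 of 12 H2A, 11 of 11 H2B and 6 of 6 H1 promoters, but in 3 of 5 H3 and 2 of 9 H4 promoters. The octamer was found in 6 of 12 H2A and 5 of 11 H2B promoters and in no H1, H3 or H4 promoter. Several genes are arranged head to head and share these windows, so that the counts are not independent.

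The 150 bases before the start of 6 genes are printed with the TATA box, the CCAAT box and the octamer, or their reverse complements, in capitals. Hist1h2bh, Hist1h2ab and Hist1h2bg are core histone genes whose values are given in the genotype comparisons, Hist1h1c and Hist2h3c2 are the members that varied most over the arrays, and Hist1h4d shows an H4 promoter. They lie at chr13:23543445-23543594 on the minus strand (Hist1h2bh), chr13:23750938-23751087 on the plus strand (Hist1h2ab), chr13:23571250-23571399 on the plus strand (Hist1h2bg), chr13:23738657-23738806 on the plus strand (Hist1h1c), chr3:96239128-96239277 on the minus strand (Hist2h3c2) and chr13:23581418-23581567 on the plus strand (Hist1h4d), all in GRCm38.p6.
Hist1h2bh: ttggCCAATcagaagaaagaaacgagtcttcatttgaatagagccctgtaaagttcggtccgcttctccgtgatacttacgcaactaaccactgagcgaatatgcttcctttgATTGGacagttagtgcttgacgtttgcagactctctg
Hist1h2ab: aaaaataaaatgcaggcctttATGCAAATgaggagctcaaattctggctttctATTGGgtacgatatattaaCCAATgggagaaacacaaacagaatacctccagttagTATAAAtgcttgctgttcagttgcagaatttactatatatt
Hist1h2bg: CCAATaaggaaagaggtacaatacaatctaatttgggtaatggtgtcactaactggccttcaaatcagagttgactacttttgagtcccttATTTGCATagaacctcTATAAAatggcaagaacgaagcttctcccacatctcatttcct
Hist1h1c: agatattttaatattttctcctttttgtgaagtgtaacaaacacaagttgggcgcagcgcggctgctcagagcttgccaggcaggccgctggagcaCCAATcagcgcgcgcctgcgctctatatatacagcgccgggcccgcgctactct
Hist2h3c2: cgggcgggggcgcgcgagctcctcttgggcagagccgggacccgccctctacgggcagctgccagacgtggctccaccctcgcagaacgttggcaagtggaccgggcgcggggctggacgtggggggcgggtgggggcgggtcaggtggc
Hist1h4d: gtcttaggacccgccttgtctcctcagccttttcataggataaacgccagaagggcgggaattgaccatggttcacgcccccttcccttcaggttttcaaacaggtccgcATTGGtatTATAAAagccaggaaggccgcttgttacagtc

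Hist1h2ab and Hist1h2bg hold all 3 motifs in this stretch, with TATAAA beginning 41 and 43 bases before the start. Hist1h2bh holds CCAAT on each strand and neither other motif, Hist1h1c holds a single CCAAT, and Hist2h3c2 holds none of the 3. Hist1h1c also holds tatatata near its start, which is not an exact TATAAA and was not counted. In Hist1h4d, CCAAT on the opposite strand stands next to TATAAA. A match describes these letters only.

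Taf4b itself checks the labels. Its intensity was 494, 635 and 723 on wild-type arrays 1 to 3, 456, 595 and 574 on the heterozygote arrays, and 332, 626 and 403 on the knockout-labelled arrays. Knockout 1 and knockout 3 were the lowest of the 9 arrays, whereas knockout 2 was at 101% of the wild-type mean, which goes against its label, and the groups overlapped. The mean log2 difference of the knockout-labelled arrays from wild type was −0.48 (SE 0.23; exact two-sided permutation p = 0.2, where 0.1 is the smallest p that 3 against 3 arrays allow; limma adjusted p = 0.514). Whether the probes lie in a deleted part of the gene is not known here. Without knockout 2 the difference was −0.74. That library is kept under its label, and values without it stand beside part of the results.

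The histone genes as a group were among the brightest on the array. Of the 49 genes, 16 (32.7%) had a mean intensity over 4000, against 2.29% of the 25100 probe sets that carry a gene symbol, and 10 had a mean under 100. Within H1, mean intensities ran up to 4139 for Hist1h1b. They ran from 28.9 (Hist1h2ac) to 8796 (Hist2h2aa2) in H2A, from 46.1 (Hist1h2bp) to 4821 (Hist1h2bl) in H2B, from 10.4 (Hist1h3f) to 10484 (Hist2h3b) in H3 and from 129 (Hist1h4h) to 7149 (Hist1h4b) in H4. Intensities of different probe sets depend on their probes and are not a measure of relative abundance. Hist1h1t, the testis-specific linker histone and the dimmest of its class, lay between 48.5 and 50.1 on all 9 arrays, the narrowest range of the 6 H1 genes.

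The bright members moved together over the arrays within a class. Across the 9 arrays, Pearson's r between bright genes of a class was 0.896 to 0.996 for 6 H2A genes, 0.956 to 0.980 for 3 H2B genes, 0.929 to 0.996 for 4 H3 genes and 0.929 for 2 H4 genes. These are descriptions, since near-identical genes share probe sequence and arrays. The median standard deviation (SD) of log2 intensity over the 9 arrays was 0.0705 for the bright histone genes, against 0.0435 for all probe sets over 4000. For the 15 histone genes between 100 and 1000 it was 0.171 against 0.113, and for the 10 under 100 it was 0.118 against 0.123.

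**Figure D1:**
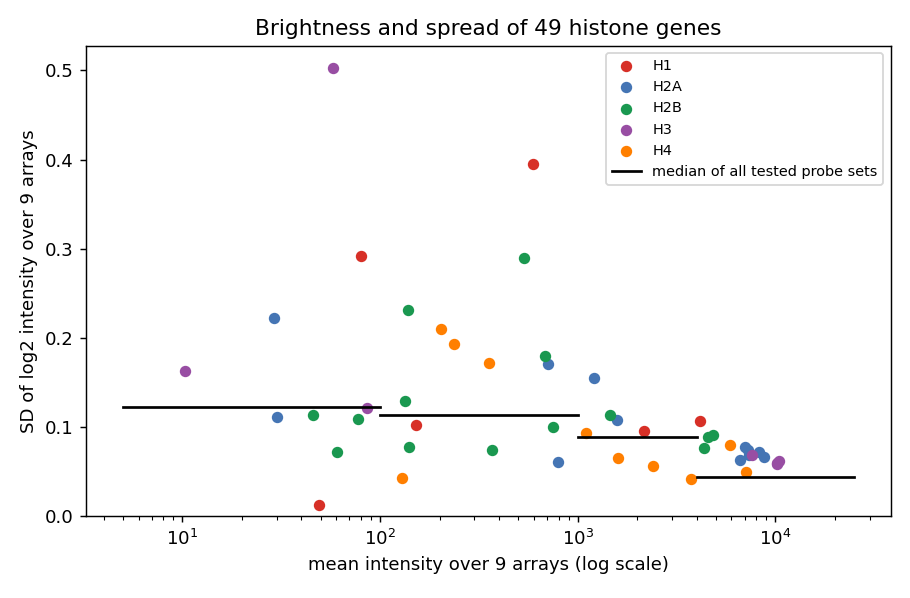
SD of log2 intensity over the 9 arrays (y axis) against mean intensity (x axis, log scale) for the 49 histone genes, coloured by class, with black lines for the median of all tested probe sets in each brightness range. The 3 highest points are Hist2h3c2 (0.50), Hist1h1c (0.40) and Hist1h1d (0.29), and the 16 genes over 4000 form a tight group on the right.

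Of the 49 genes, 7 had several probe sets under the same symbol. Whether these measure a single locus or several near-identical copies was not tested. The 7 probe sets of Hist1h2ao correlated at 0.993 to 1.00 over the arrays and those of Hist2h3b at 0.954 to 0.999, and the probe sets of Hist2h2aa1, Hist1h4b and Hist1h2an correlated at 0.948 or more. Both probe sets of Hist1h4m held identical values on all 9 arrays and were counted once. The 2 probe sets of Hist1h2bb disagreed, with mean intensities of 15.3 and 538 and a correlation of 0.15. The accession of Hist1h2ao matched the RefSeq gene H2ac24 and that of Hist1h4m matched H4c18, while their old symbols are listed under H2ac23 and H4c17, so which copy each measures is uncertain. Hist3h2bb is annotated as a pseudogene.

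The knockout-labelled arrays were compared with wild type by their labels, since the Taf4b values showed no loss on knockout 2. Histone genes lay slightly lower and no single gene passed the test. The median log2 difference over the 49 genes was −0.05, against −0.00 for all tested probe sets, and 40 of 49 lay below wild type, where 51.7% of all probe sets did. In limma with Benjamini-Hochberg adjustment over all 25100 probe sets, 0 of 49 histone genes passed an adjusted p of 0.05, where 19 probe sets (0.0757%) passed. At an unadjusted p under 0.05, 3 histone genes were lower (5.77% of all probe sets were) and 0 were higher (4.89% were). By the authors' deposited table, 2 of 49 had a p-value under 0.05, where 7.25% of all probe sets did. The shares of called genes were therefore near the background, while the share lying lower was above it, as a description of genes that move together.

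The H2B genes had the lowest class median. It was −0.10 over 14 H2B genes, of which 13 lay below wild type, −0.05 over 12 H2A genes (10 below), −0.04 over 10 H4 genes (9 below), −0.01 over 7 H3 genes (5 below) and 0.00 over 6 H1 genes (3 below). The bright H2B genes lay between −0.12 and −0.10, the bright H3 genes between −0.01 and 0.00, and the bright H4 genes between 0.00 and 0.02. Without knockout 2, the class medians were −0.16 for H2B, −0.08 for H2A, −0.08 for H4, −0.06 for H3 and −0.13 for H1, so that the H1 and H3 medians near 0 depended on that array. Without wild type 2, the H2A median was −0.01 and the H2B median −0.06. The difference between classes was not tested.

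**Figure D2:**
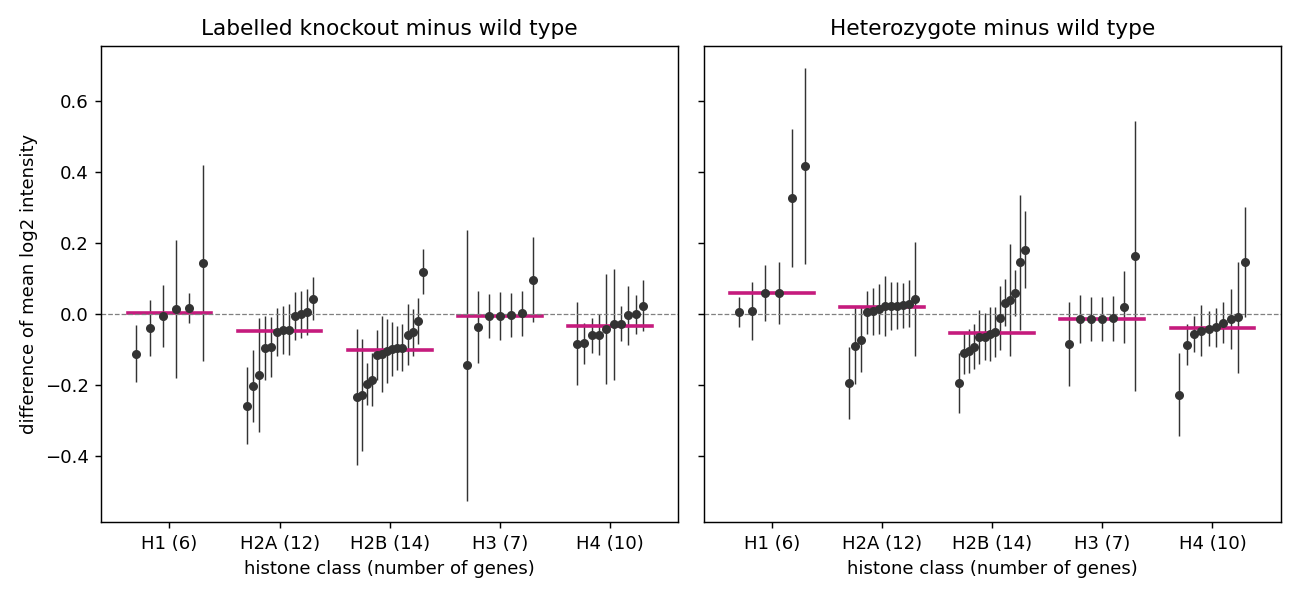
Difference of mean log2 intensity between the knockout-labelled arrays and wild type (left) and between heterozygote and wild type (right) for each histone gene, ordered by value within its class. Points are genes, vertical lines are ± 1 SE from limma (3 arrays a group) and pink bars are class medians, which on the left are lowest for H2B (−0.10) and near 0 for H1 and H3 (−0.13 and −0.06 without knockout 2).

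Hist1h2bh, a core H2B gene, had the smallest p of the histone genes in this comparison. Its intensity was 786, 820 and 799 on the wild-type arrays, 756, 752 and 719 on the heterozygote arrays and 675, 752 and 673 on the knockout-labelled arrays. Each wild-type array lay above each of the other 6. The log2 difference of the knockout-labelled arrays from wild type was −0.20 (SE 0.06, 95% interval −0.33 to −0.07; limma adjusted p = 0.274), and the authors' deposited table gives a fold of 1.15, wild type over knockout, with a p-value of 0.0216.

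The other members with small p were mostly H2A and H2B genes. Hist1h2ab, an H2A gene, measured 692, 855 and 747 in wild type, 813, 696 and 647 in heterozygotes and 601, 696 and 617 in the knockout-labelled arrays, where knockout 2 exceeded wild type 1 and the groups therefore overlapped (log2 difference −0.26, SE 0.11; limma adjusted p = 0.444). The dim H2B gene Hist1h2bp measured 47.6, 53.7 and 45.1 in wild type and 41.1, 44.7 and 42.8 in the knockout-labelled arrays, which did not overlap (−0.19; limma adjusted p = 0.425). Hist1h2bf, a bright H2B gene, measured 4644, 5006 and 4629 in wild type and 4244, 4764 and 4170 in the knockout-labelled arrays, with knockout 2 inside the wild-type range (−0.12, and −0.18 without knockout 2; limma adjusted p = 0.617 and 0.314).

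Hist2h2be, which in mouse encodes the H2B variant H2BE of olfactory neurons, went the other way. It measured 76.8, 76.8 and 75.5 in wild type, 69.0, 76.8 and 69.3 in heterozygotes and 88.3, 80.2 and 80.5 in the knockout-labelled arrays. All 3 of the latter were above the other 6 arrays, at low intensity (log2 difference 0.12, SE 0.06; limma adjusted p = 0.554). Without overlap between wild type and the knockout-labelled arrays, 6 histone genes were lower (Hist1h2ae, Hist1h2bb, Hist1h2bh, Hist1h2bp, Hist1h4f and Hist3h2bb; 7.77% of all probe sets were) and 1 was higher (Hist2h2be; 6.51% were). Some margins were narrow. The lowest wild-type and highest knockout-labelled values were 30.51 and 30.46 for Hist1h2ae, 1590.4 and 1589.7 for Hist1h4f, and 141.3 and 140.5 for Hist3h2bb.

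The library labelled knockout 2 carried higher histone values than the other 2 of its group. The mean log2 deviation of the 49 genes from their own 9-array means was 0.00, 0.08 and −0.03 on the wild-type arrays, 0.03, 0.04 and −0.01 on the heterozygote arrays and −0.09, 0.07 and −0.10 on the knockout-labelled arrays. On knockout 2, 37 of the 49 genes were above their own mean, and on knockout 3 only 4 were. Without knockout 2, 44 of 49 genes lay below wild type (51.3% of all probe sets did), the median was −0.10 6 were lower at an unadjusted p under 0.05 (5.88% of all were) and 0 higher (6.96% were), but again 0 of 49 passed the adjusted threshold, where 0.0797% of all did. Wild type 2 was the highest wild-type array, and without it 28 of 49 lay below wild type, with a median of −0.02.

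**Figure D3:**
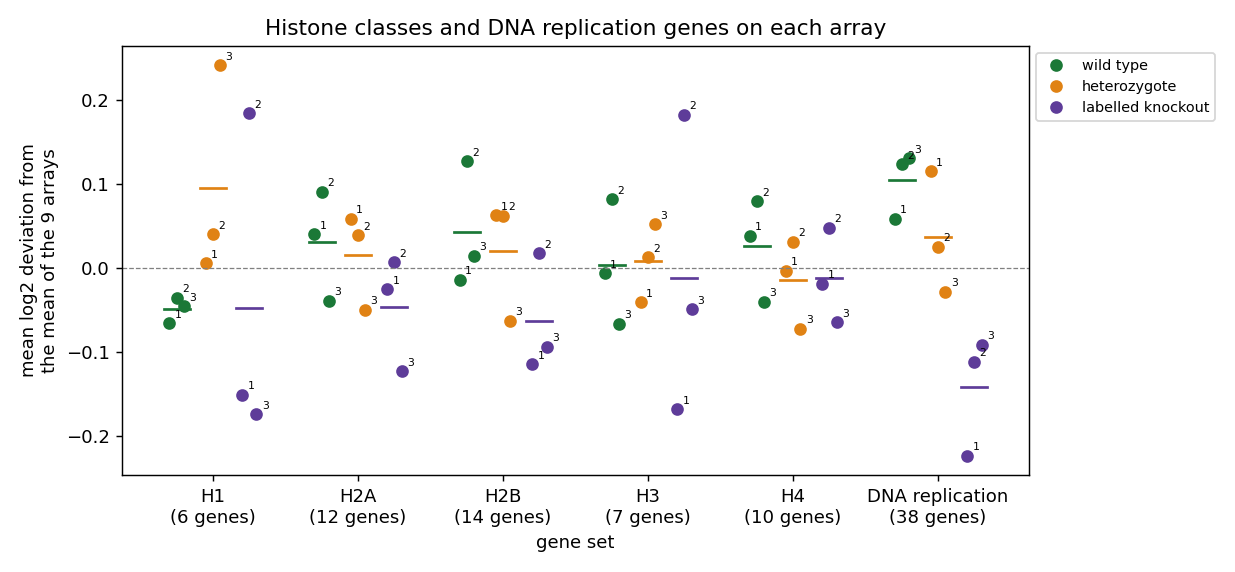
Mean log2 deviation of each class of histone genes, and of 38 DNA replication genes, from the genes' own means over the 9 arrays (y axis), for each array (points, numbered by replicate) and genotype (colours), with bars at the group means. For H1 and H3, knockout 2 lies at 0.18, above knockout 1 and knockout 3, whereas the replication genes are negative on all 3 arrays labelled knockout.

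Other genes of the same cell-cycle phase are given beside them. DNA replication genes, which unwind and copy DNA in S phase, lay below wild type in 38 of 38 cases in the knockout-labelled arrays, with a median log2 difference of −0.26. Of these, 25 were lower at an unadjusted p under 0.05 (5.77% of all probe sets were), 27 were lower without overlap (7.77% were), and 0 passed the adjusted threshold, the smallest adjusted p being 0.0906 for Mcm5, a subunit of the replicative helicase (−0.36, SE 0.06; limma). Their mean deviation was 0.06, 0.12 and 0.13 in wild type and −0.22, −0.11 and −0.09 in the knockout-labelled arrays, which do not overlap, unlike those of the histone genes. Mitosis genes lay below wild type in 29 of 30 cases (median −0.19), with 0 passing the adjusted threshold. At an unadjusted limma p under 0.05, 17 were lower (5.77% of all probe sets were), and 14 were lower without overlap (7.77% were). Their mean deviation was 0.006, 0.127 and 0.081 in wild type and −0.193, 0.002 and −0.174 in the knockout-labelled arrays. Knockout 2 was thus the highest of its group in the mitosis genes, as in the histone genes. Without it, the median was −0.26 for the mitosis genes (30 of 30 below wild type) and −0.28 for the replication genes (38 of 38 below). The difference between these lists and the histone genes was not tested.

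Markers of ovarian cell types also moved between these groups. Of 10 granulosa markers, 9 lay below wild type, and their summed intensity was 32516 to 34543 in wild type, 33644 to 34690 in heterozygotes and 24499 to 33964 in the knockout-labelled arrays, where knockout 2 was the highest of its group. Surface epithelium markers (8 of 8 above) summed to 2206 to 2783 in wild type and 3364 to 3808 in the knockout-labelled arrays, and macrophage markers (8 of 8 above) to 1333 to 1487 and 1676 to 2369. Without knockout 2, the median log2 difference of the granulosa markers went from −0.18 to −0.33. No marker is listed at 0, and the part of cell makeup in the histone values was not tested.

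Genes that make and process histone messages were next in role. Of 26 listed genes of histone mRNA processing and the histone locus body, 24 were measured, 21 lay below wild type in the knockout-labelled arrays (median −0.12), 3 were lower at an unadjusted p under 0.05 (5.77% of all probe sets were) and 0 passed the adjusted threshold. Slbp, whose protein binds the stem-loop of histone messages, measured 1756, 1889 and 1709 in wild type, 1643, 1588 and 1365 in heterozygotes and 1506, 1311 and 1588 in the knockout-labelled arrays. Each wild-type array was above each of the other 6. The knockout-labelled arrays differed from wild type by −0.28 (SE 0.09, limma adjusted p = 0.330), and by −0.21 without knockout 2. Npat, the coactivator at the histone locus body, differed by 0.03 (adjusted p = 0.908). Upf1, an RNA helicase of mRNA decay, differed by −0.17 (adjusted p = 0.273), Fip1l1, of the 3′ end machinery, by −0.14 (adjusted p = 0.348) and Casp8ap2, a component of the locus body also called FLASH, by −0.14 (adjusted p = 0.470).

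Chaperones that carry histones to DNA came next. Of 26 measured genes, 22 lay below wild type (median −0.12), 6 were lower at an unadjusted p under 0.05 (5.77% of all probe sets were) and 0 passed the adjusted threshold. Without knockout 2, 20 lay below and the median was −0.08. Chaf1a, a subunit of the assembly factor CAF-1, differed by −0.28 (SE 0.06; limma adjusted p = 0.146), Mis18a, of centromeric chromatin, by −0.25 (adjusted p = 0.198) and Tonsl, which binds newly made H4, by −0.23 (adjusted p = 0.307).

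The replication-independent histone variants, which are also made outside S phase, showed no common direction: 8 of 15 measured genes lay below wild type and 7 above, with a median of 0.00. Without knockout 2, 10 lay below and the median was −0.04. H2afz, of the variant H2A.Z, differed by −0.18 (limma adjusted p = 0.647), H2afx, whose product marks DNA breaks, by −0.15 (adjusted p = 0.376), and H3f3a and H3f3b, which both encode H3.3, by 0.02 and 0.14 (adjusted p = 0.962 and 0.456). H1f0, the linker histone H1.0 of resting cells, measured 1816, 1544 and 1435 in wild type, 1435, 1831 and 2083 in heterozygotes and 2304, 2338 and 2094 in the knockout-labelled arrays. The latter were all above the other 6 arrays (0.50, SE 0.14; limma adjusted p = 0.25), and the difference was 0.47 without knockout 2.

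Between heterozygotes and wild type, the histone genes were evenly divided. The median log2 difference was −0.01, and 26 of 49 lay below wild type, where 48.7% of all probe sets did. In limma, 0 of 49 passed the adjusted threshold (0% of all did), 1 was lower at an unadjusted p under 0.05 (3.04% of all were) and 0 were higher (2.71% were), against 5.75% in either direction. By the authors' deposited p-value 1 passed 0.05 (4.57% of all did), which was Hist1h2bh (0.0179). Class medians were 0.06 for H1, 0.02 for H2A, −0.05 for H2B, −0.01 for H3 and −0.04 for H4. All 6 H1 genes lay above wild type, but Hist1h1b by only 0.007 and Hist1h1t by only 0.004. Without overlap, Hist1h2ba and Hist1h2bh were lower (6.43% of all were) and Hist1h1d was higher (4.13% were). The wild-type arrays are shared with the previous comparison, so that the 2 sets of differences are not independent.

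Hist1h2ba, which encodes the germ-cell H2B variant TH2B of testis and oocyte, had the smallest limma p here (authors' deposited p-value 0.116). It measured 135, 153 and 134 in wild type, 112, 134 and 123 in heterozygotes and 145, 129 and 132 in the knockout-labelled arrays. The heterozygote arrays were all below the wild-type arrays, if by a narrow margin (−0.20, SE 0.09; limma adjusted p = 0.815), and the knockout-labelled arrays differed from them by 0.14 (limma adjusted p = 0.483). Its divergent neighbour Hist1h2aa, which encodes the partner variant TH2A, measured 1448, 1361 and 1151 in wild type, 1188, 1094 and 1162 in heterozygotes and 1199, 1010 and 1224 in the knockout-labelled arrays, so that the groups overlapped (−0.20 in each comparison with wild type; limma adjusted p = 0.815 and 0.524). Without knockout 2, Hist1h2aa differed by −0.12 between the knockout-labelled arrays and wild type.

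Oocyte markers were lower in the heterozygotes in 10 of 10 cases (median −0.32), with summed intensities of 27083, 23463 and 19937 in wild type, 19393, 18903 and 16392 in heterozygotes and 24367, 17088 and 27201 in the knockout-labelled arrays. Within the last group, knockout 2 was lowest both in this sum and in Hist1h2aa and Hist1h2ba. The median difference of the oocyte markers between the knockout-labelled arrays and wild type was −0.12, and 0.09 without knockout 2. H1foo, the oocyte linker histone, measured 850, 823 and 680 in wild type, 566, 585 and 566 in heterozygotes and 682, 407 and 675 in the knockout-labelled arrays, again with knockout 2 lowest. Its differences from wild type were −0.45 in heterozygotes and −0.45 in the knockout-labelled arrays (limma adjusted p = 0.815 and 0.435), and the latter was −0.20 without knockout 2. The part of oocyte number in these values was not tested.

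The remaining members named for a small p in heterozygotes were Hist1h4c (−0.23), Hist3h2bb (−0.11) and Hist1h2bc (0.18), with a limma adjusted p of 0.815 each. Hist1h4c measured 418, 395 and 328 in wild type and 340, 357 and 277 in heterozygotes, which overlapped. Without wild type 2, 19 of 49 histone genes lay below wild type in heterozygotes, and without wild type 3, 36 did, so that the count depended on single arrays.

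Between the knockout-labelled arrays and heterozygotes, 33 of 49 histone genes lay lower in the former (54.5% of all probe sets did), with a median of −0.03. In limma, 0 of 49 passed the adjusted threshold (0.0239% of all did), 1 was lower (6.57% of all were) and 1 higher (7.71% were) at an unadjusted p under 0.05, and by the authors' deposited p-value 1 passed 0.05 (7.7% of all did). Class medians were −0.11 for H1, −0.05 for H2A, −0.08 for H2B, 0.01 for H3 and 0.01 for H4. Without knockout 2, 38 of 49 lay lower (53.5% of all did) and the median was −0.08, with class medians of −0.19 for H1, −0.07 for H2A, −0.13 for H2B, −0.04 for H3 and 0.00 for H4. At an unadjusted p under 0.05, 9 were then lower (7.8% of all were) and 1 higher (10.9%), and 0 passed the adjusted threshold, where 1.04% of all did.

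Hist2h2be was the higher gene (0.21, SE 0.06; limma adjusted p = 0.217) and Hist1h2bc the lower one. Hist1h2bc, an H2B gene, measured 620, 709 and 669 in wild type, 840, 740 and 688 in heterozygotes and 531, 669 and 654 in the knockout-labelled arrays. Heterozygotes were all above the knockout-labelled arrays (−0.29, SE 0.11; limma adjusted p = 0.285), and it was the 1 histone gene lower without overlap (8.12% of all probe sets were), as Hist2h2be was the 1 higher (8.08% were). Hist1h2bb, by its brighter probe set, measured 486, 562 and 571 in wild type, 838, 560 and 449 in heterozygotes and 446, 472 and 455 in the knockout-labelled arrays, and heterozygote 1 alone was above all other arrays (−0.38, SE 0.19; limma adjusted p = 0.400). Without heterozygote 1 the difference was −0.13, and without heterozygote 3 it was −0.58. The dimmer probe set, which carries several gene symbols, differed by −0.06.

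Erythroid markers were also highest in heterozygote 1, at a summed intensity of 18646, against 11077 to 15787 on the other 8 arrays, and their part in the Hist1h2bb value was not tested. Hist1h2bg, which shares its promoter window head to head with Hist1h2ae, measured 134, 156 and 143 in wild type, 143, 148 and 152 in heterozygotes and 93.1, 155 and 128 in the knockout-labelled arrays. Knockout 1 was the lowest array, and the groups overlapped (−0.27, SE 0.16; limma adjusted p = 0.457). Without knockout 2, its difference was −0.43 from heterozygotes and −0.40 from wild type.

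Divergent H2A and H2B neighbours were compared as pairs, since each pair shares its promoter window. Against wild type, the knockout-labelled arrays differed by −0.10 for Hist1h2ae and −0.23 for Hist1h2bg, by −0.09 for Hist1h2ak and −0.10 for Hist1h2bn, by −0.05 for Hist1h2an and −0.19 for Hist1h2bp, and by −0.20 for Hist1h2aa and −0.06 for Hist1h2ba. All 8 genes of the 4 pairs lay below wild type, as 40 of the 49 histone genes did. In heterozygotes, the differences from wild type were −0.07 for Hist1h2ae and 0.04 for Hist1h2bg, 0.02 for Hist1h2ak and −0.07 for Hist1h2bn, and 0.01 for Hist1h2an and −0.07 for Hist1h2bp, so that 3 pairs had opposite signs, and −0.20 for both Hist1h2aa and Hist1h2ba.

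The members that varied most over the 9 arrays were an H3 gene and a pair of linker histone genes. Hist1h1c, which encodes the linker histone H1.2, measured 475, 530 and 504 in wild type, 494, 639 and 957 in heterozygotes and 452, 829 and 456 in the knockout-labelled arrays, a 2.12-fold range. Hist1h1d, which encodes H1.3, measured 74.8, 69.7 and 73.5 in wild type, 77.0, 79.8 and 122 in heterozygotes and 69.5, 92.9 and 61.0 in the knockout-labelled arrays. Hist2h3c2, an H3 gene at low intensity, measured 46.5, 60.2 and 58.3 in wild type, 38.8, 69.1 and 85.4 in heterozygotes and 29.1, 81.6 and 50.7 in the knockout-labelled arrays, a 2.93-fold range. In each of the 3 genes, heterozygote 3 was the highest array and knockout 2 the next.

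No difference between genotypes in these genes passed the test. Hist1h1c differed from wild type by 0.42 in heterozygotes (SE 0.28) and 0.14 in the knockout-labelled arrays (SE 0.28), and Hist2h3c2 by 0.16 and −0.15 (SE 0.38 each), with limma adjusted p-values of 0.815 or more. Hist1h1d differed from heterozygotes by −0.31 in the knockout-labelled arrays (limma adjusted p = 0.481), and by −0.48 without knockout 2. Without knockout 2, the difference of Hist1h1c between the knockout-labelled arrays and wild type was −0.15 and that of Hist1h1d −0.16, so that both turned negative, and that of Hist2h3c2 was −0.51. The bright linker gene Hist1h1b, of H1.5, measured 4108, 4409 and 4182 in wild type and 3687, 4469 and 3639 in the knockout-labelled arrays, again with knockout 2 highest (−0.11; limma adjusted p = 0.696), and differed by −0.21 without knockout 2 (limma adjusted p = 0.180).

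**Figure D4:**
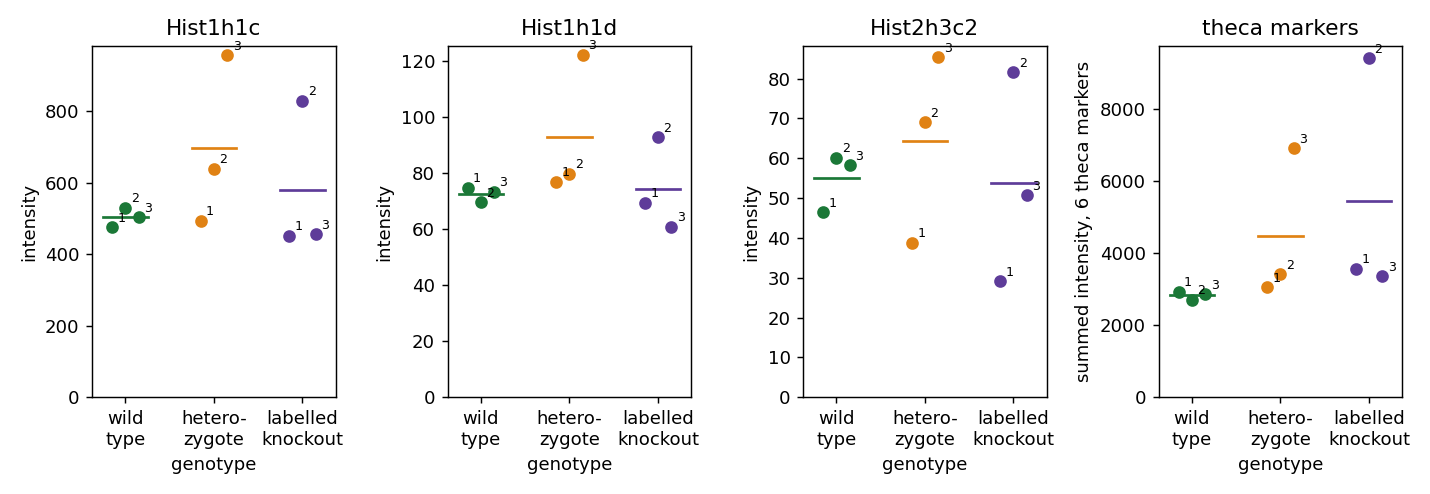
Intensity of Hist1h1c, Hist1h1d and Hist2h3c2 and the summed intensity of 6 theca markers (y axes, from 0) on the 9 arrays by genotype (points numbered by replicate, bars at group means). Heterozygote 3 and knockout 2 are the highest arrays in all 4 panels.

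Theca markers, of the steroid-producing cells around the follicle, were highest on the same arrays. Their summed intensity was 2928, 2707 and 2866 in wild type, 3057, 3421 and 6920 in heterozygotes and 3574, 9424 and 3358 in the knockout-labelled arrays, where 6 of 6 markers lay above wild type (median 0.68, and 0.32 without knockout 2). Heterozygote 3 and knockout 2 were thus the 2 highest arrays in both measures, in the reverse order. The part of theca cells in the 3 histone genes was not tested.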

How the data were processed

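Total RNA of 9 mice was labelled by the Affymetrix whole-transcript sense protocol (revision 3). Intensity values were made by the authors with RMA-Sketch in Expression Console 1.1, per the labels and design text. RMA normalizes arrays together and combines the values of probes into probe sets. The deposited intensity values are linear, from their range, and log2 values were computed here. The authors' deposited tables also hold a ratio (fold change) and a p-value for each pair of genotypes. Array medians were 123.7 to 126.9 and arrays correlated at 0.989 to 0.998. Of 28266 probe sets, 3166 without a symbol were left out. RMA gave a value equal on 2 or more arrays for 16 of 49 histone genes and 55.2% of probe sets tested.

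One model of all 9 arrays was fitted with limma 3.58.1 (R 4.3.3) and tested on simulated data. P-values were adjusted by Benjamini-Hochberg over the 25100 probe sets, with a threshold of 0.05. The members and lists were chosen with earlier results of these data known. Named genes were the 6 of smallest p in each comparison, the brightest and dimmest of each class, the 3 most variable, those with several probe sets, up to 4 of each list with the smallest p, and a few regulators and variants. Genes were matched to RefSeq (48 by accession, 1 by synonym). Alternatives covered normalization, centring, filters, the arrays fitted, the moderation, probe set choice, a replicate block and each array left out. Same-numbered arrays of different groups are not stated to share an animal or batch.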

Additional observations from a re-analysis of the deposited data

How the results depend on the processing

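No histone gene passed the adjusted threshold in any comparison under any limma alternative, which included leaving out each array in turn. The authors' p-values at 0.05, unadjusted, gave 2, 1 and 1 histone genes for the knockout-labelled arrays against wild type, heterozygotes against wild type and the knockout-labelled arrays against heterozygotes, and 1819, 1146 and 1931 probe sets in all. After Benjamini-Hochberg adjustment they gave 3 probe sets in the first and 1 in the last. Counts over all probe sets moved more. For the knockout-labelled arrays against wild type, 19 became 48 with the lowest 25% of intensities left out, 0 with only the 6 arrays compared, 10 without knockout 2 and heterozygote 3 (an alternative chosen after seeing the data), and 2 to 20 when single arrays were left out. For the knockout-labelled arrays against heterozygotes, 6 became 11 with quantile normalization, 12 with each array centred on its median, 30 with the lowest 25% left out, 0 with only the 6 arrays compared and 0 to 261 when single arrays were left out (261 without knockout 2). With replicate number as a block, the counts were 3 and 0, and no histone gene was called. After group means were subtracted, same-numbered arrays of different groups correlated at −0.19 to 0.33 in 9 pairs. The 18 pairs with other numbers correlated at −0.37 to 0.26, so the ranges overlapped. These correlations cannot tell whether same-numbered arrays share a litter or a batch. The median over histone genes in the knockout-labelled arrays against wild type stayed below 0, at −0.10 to −0.02, when single arrays were left out, and 28 to 44 of 49 lay lower. Against heterozygotes it was −0.12 without knockout 2 and heterozygote 3. In heterozygotes against wild type the median ran from −0.04 to 0.02, so its sign depended on single arrays.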
